A study of Sus scrofa domesticus with 150 samples.

Results

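The wound center on day 7 after wounding was compared with unwounded skin in pigs. The members were chosen by the day and location in the sample labels, and they are the 6 center samples of day 7 and the 6 samples of whole skin excised on day 0, 12 of the 150 samples of the series. All animals were female domestic pigs of a Yorkshire mix that received full-thickness circular excisions, dressed and otherwise untreated. The center samples came from wounds E and H of animals 1323, 1324 and 1325, and the skin samples were the excised tissue of animals 1323 to 1328, with 1 sample per animal. The 6 wounds therefore stand for 3 animals, and p-values measure the spread between wounds and between skin samples. Skin samples held the whole thickness of the excised disc, and center samples were biopsies of the wound bed, so the comparison is between whole skin and the tissue that had filled its place. In bulk tissue, fewer cells of a type and less RNA per cell cannot be told apart.

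A full-thickness excision removes epidermis, hair follicles, glands and dermis down to the fat. The gap fills with granulation tissue, a provisional matrix of fibronectin and young collagen in which macrophages, fibroblasts and new vessels accumulate, and keratinocytes migrate over it from the wound margin. Neutrophils reach the wound first and stay near its open surface, and the newly laid matrix is cut and replaced by metalloproteinases while it forms.

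Total counts were 15767362 to 20810636 reads per sample in the center and 15698806 to 21415735 in skin, so both groups were measured to a similar depth. Between 17810 and 18776 genes had at least 1 read in a center sample and 17116 to 19052 in a skin sample. Pearson's r of log2(1 + CPM) across genes was 0.958 to 0.988 between center samples, 0.932 to 0.983 between skin samples and 0.682 to 0.736 between a center and a skin sample. Here CPM is a gene's count scaled to the size of its library, with TMM factors. A pair of libraries stood apart. The skin of animal 1324 had a summed level of 58.3 CPM over the hair follicle genes, against 5644 to 20580 CPM in the other skin samples, and the center of wound H in animal 1324 had 483 CPM over the skeletal muscle genes, against 9.67 to 14.8 CPM in the other center samples. Counts or calls of the hair follicle and skeletal muscle lists against skin are given with and without the library concerned.

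Of 14717 genes that passed the filter on low counts, 5194 (35.3%) were higher and 5260 (35.7%) were lower in the day 7 center (quasi-likelihood test of edgeR, adjusted p under 0.05 by Benjamini-Hochberg over these genes). Differences of at least 4-fold among them numbered 1258 higher (8.55%) and 1694 lower (11.5%). Center and skin samples did not overlap in 7556 genes (51.3%), of which 3772 were higher and 3784 lower in the center. The median log2 fold change of all genes tested was -0.01, and -0.04 without TMM scaling. With the 2 wounds of each animal summed, 5143 genes were higher and 5254 lower, and with the animal as replicate block 4537 and 4648. Because so many genes passed, the gene lists are read against these shares and against the median of all genes.

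**Figure D1:**
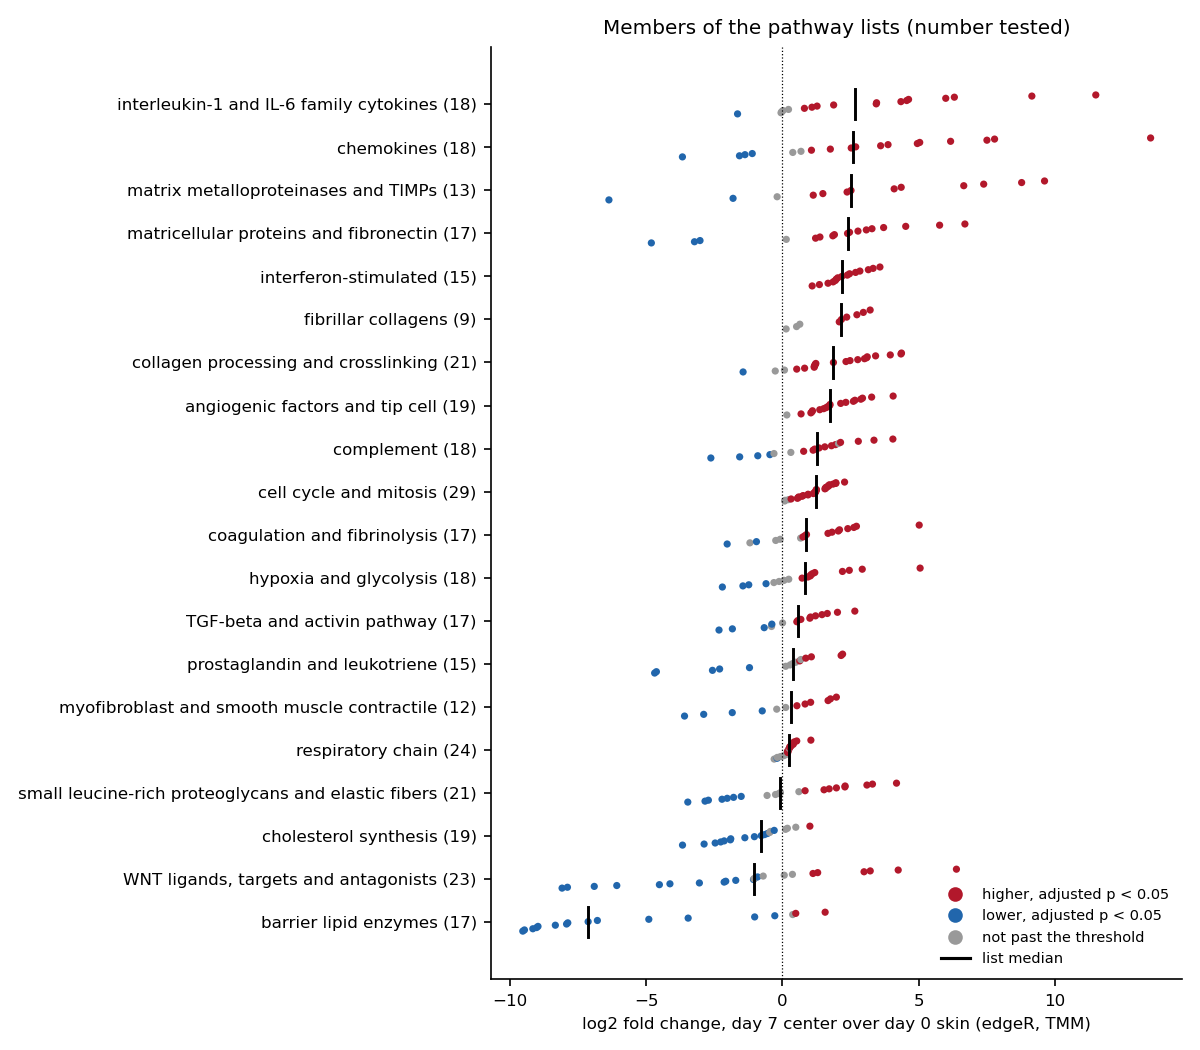
Each point is a tested member of a pathway list, at its fitted log2 fold change of day 7 center over day 0 skin (x axis), coloured by the adjusted p, with a bar at the list's median. Interleukins, chemokines and metalloproteinases have medians above 2.5 with members past 9, all 15 interferon-stimulated genes lie to the right of 0, and the barrier lipid enzymes form the list farthest to the left with a median of -7.13.

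Values of single genes are given as the lowest, median and highest CPM of the 6 samples of each group, and log2 fold changes of center over skin with their standard error. The largest rises were in genes of inflammation. CXCL8, the main neutrophil-attracting chemokine, was at 212, 1561 and 4164 CPM in the center and 0, 0.102 and 0.558 CPM in skin, a log2 fold change of 13.51 ± 1.05 (adjusted p = 1.06e-07). IL1B, the secreted form of interleukin-1 made by activated myeloid cells, was at 15.3, 151 and 408 CPM and 0, 0.0493 and 0.124 CPM, a log2 fold change of 11.49 ± 1.07 (adjusted p = 6.05e-07). Every center sample was above every skin sample in both genes, and within the center they spread widely, with wound H above wound E in 3 of 3 animals. CCL3, a chemokine for monocytes and lymphocytes, was at 17.8, 137 and 379.9 CPM against 0, 0.0247 and 0.434 CPM (log2 fold change 10.45 ± 1.04). ACOD1, the itaconate-forming enzyme of activated macrophages, was at 2.81, 47 and 97.1 CPM against 0, 0 and 0.21 CPM (10.19 ± 1.11), and the acute phase protein SAA2 at 8.54, 187 and 732 CPM against 0.0525, 0.281 and 0.49 CPM (9.92 ± 1.03). In these 3 genes too the groups did not overlap. The symbols CCL3 and ACOD1 each belong to 2 entries of the deposited counts, and the values are those of a single entry. SAA2 has close relatives among the serum amyloid genes, and reads shared with them leave its level uncertain.

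Other genes had no read in skin at all, so their change is given as a lower bound against 3 reads over the 6 skin samples. CLEC4E, a receptor of myeloid cells for damaged cells and mycobacteria, was at 1.85, 23.4 and 76.9 CPM in the center, at least 1200-fold higher. DCSTAMP, a membrane protein needed for the fusion of macrophages and osteoclasts, was at 12.5, 14 and 30.4 CPM, at least 622-fold higher. TM4SF19, a membrane protein found in osteoclasts, was at 10.8, 16 and 28.1 CPM and had 1 read in skin, a ratio of 1950 with a 95% counting interval of 350.0 to 77100. In CLEC4E the lowest and highest center samples, wounds E of 1324 and H of 1325, were far apart, and in DCSTAMP wound H of 1325 stood above the other 5, which were at 12.5 to 18.2 CPM. ARG1, the arginase of macrophages that take part in repair, was at 422, 890.4 and 2304 CPM against 0, 0.933 and 1.78 CPM (log2 fold change 10.13 ± 0.74, adjusted p = 5.52e-08), and MMP9, the gelatinase of neutrophils and macrophages, at 1401, 2531 and 3553 CPM against 2.32, 3 and 5.45 CPM (9.62 ± 0.33, adjusted p = 5.83e-11). The center samples of MMP9 lay closer together than those of ARG1, and neither gene's groups overlapped. The CXCL8 gene (ENSSSCG00025017428) lies on contig LUXX01018793.1 from 3456350 to 3459574 (minus strand), ARG1 (ENSSSCG00025000224) on LUXX01009893.1 from 352842 to 376065 (plus strand) and MMP9 (ENSSSCG00025068399) on LUXX01101888.1 from 2973718 to 2980835 (plus strand), in the coordinates of the deposited table.

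At the other end, 8 of the 10 largest falls were in keratins, keratin-associated proteins and trichohyalin of the hair shaft and its sheaths, and the others were PRR9 and SERPINA1. KRT34 and KRT31, keratins of the hair cortex, had 0 reads in the center, which made them at least 29500-fold and 27700-fold lower than skin. KRT71, a keratin of the inner root sheath, was at 9.49, 4205 and 6051 CPM in skin and 0, 0.0587 and 0.189 CPM in the center. KRTAP9-3, KRT74 and PRR9 were also without a read in the center, and KRT33B, KRTAP11-1 and TCHH had 1 read each. SERPINA1, which encodes a secreted inhibitor of neutrophil elastase, was at 20.4, 212 and 346 CPM in skin and had no read in the center, at least 6960-fold lower. Its symbol belongs to 3 entries of the deposited counts. These values are those of a single entry, so they do not show that all SERPINA1 transcript was absent. The lowest skin value in all 10 genes was that of animal 1324, which had 0.593 to 20.4 CPM where the other skin samples had 118 CPM or more, and even these low values lay above every center sample. Hair keratins and keratin-associated proteins are near-identical families, and reads that the counting split between copies leave single members uncertain.

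The most abundant transcripts were shared. COL3A1, COL1A1 and COL1A2, the chains of the main dermal collagens, took 3.67% ± 1.12 (SD, n = 6), 3.41% ± 0.993 and 2.17% ± 0.565 of the counts in the center and 2.38% ± 0.901, 2.39% ± 1.15 and 1.99% ± 0.893 in skin. SPARC, a collagen-binding protein, took 1.09% ± 0.233 in the center and 0.996% ± 0.339 in skin. None of these 4 genes passed the threshold in this test, SPARC did so against the skin of the same 3 animals (0.58, adjusted p = 0.0358), and the 3 collagen chains with the animal as replicate block (log2 fold changes 1.16 for COL3A1, 1.15 for COL1A1 and 0.75 for COL1A2, adjusted p = 0.0142, 0.0117 and 0.0482). The elongation factor EEF1A1 fell from 1.29% ± 0.135 to 0.735% ± 0.0313 (log2 fold change -0.79 ± 0.09, adjusted p = 3.27e-06). KRT10 and KRT1, the keratin pair of the differentiating epidermis, took 1.87% ± 0.635 and 1.39% ± 0.544 of the skin counts and 0.00436% ± 0.00261 and 0.00355% ± 0.00287 of the center counts.

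**Figure D2:**
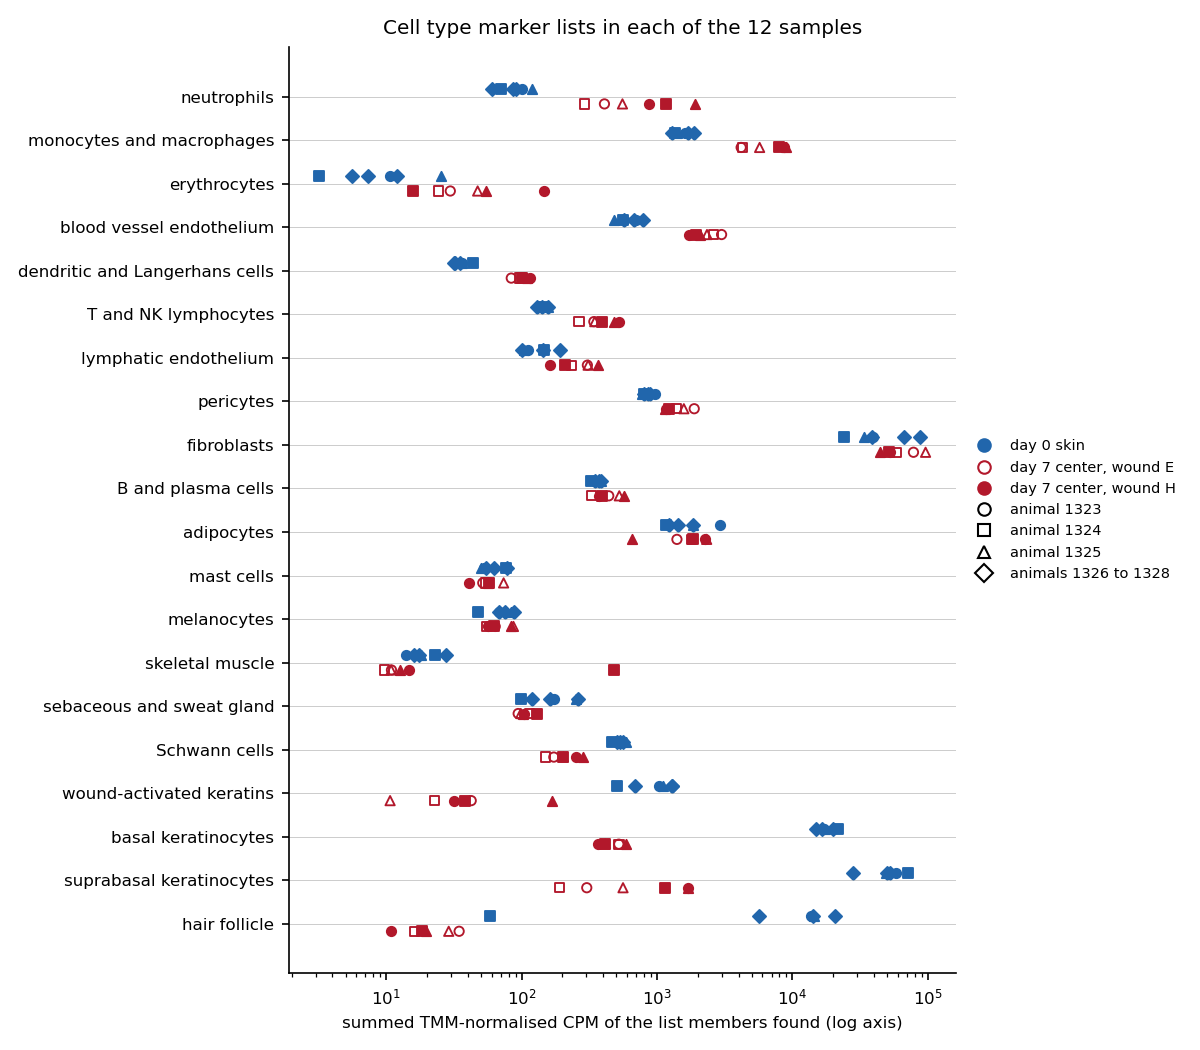
Each symbol is 1 sample, at the summed TMM-normalised CPM of a cell type's marker genes (x axis, log scale), with blue for day 0 skin and red for day 7 center, open for wound E and filled for wound H. Neutrophil, macrophage, endothelial and T and NK lymphocyte sums lie wholly above skin, keratinocyte and hair follicle sums wholly below it, and 2 symbols sit apart: the skin of animal 1324 in hair follicle at 58.3 CPM and the center of wound H of the same animal in skeletal muscle at 483 CPM.

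Keratinocyte genes were low in the center. Of 17 suprabasal keratinocyte markers tested, 16 were lower and 0 higher, all 16 by at least 4-fold, with a median log2 fold change of -8.40, and all 13 basal keratinocyte markers were lower, 10 of them by at least 4-fold, with a median of -5.93. KRT10 was at 9390, 18070 and 26090 CPM in skin and 18, 38.4 and 92.5 CPM in the center (log2 fold change -8.71 ± 0.50, adjusted p = 5.24e-09), and KRT5, the keratin of the basal layer, at 6301, 8058 and 10040 CPM in skin and 5.8, 22.4 and 77.4 CPM in the center (-8.19 ± 0.60, adjusted p = 5.58e-08). The highest center value of either gene, in wound H of animal 1325, was far under the lowest skin value. The desmosomal cadherins DSC1 and DSG1 fell by 9.62 and 9.46 on the log2 scale, CDSN of the corneodesmosome by 9.36, the protease inhibitor SPINK5 by 9.11 and KRT77 by 10.71. Among basal genes, the epithelial regulator TP63 fell by 8.38, the hemidesmosomal collagen COL17A1 by 8.16, the cell cycle inhibitor SFN by 6.86 and KRT15 by 6.34.

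A single suprabasal marker did not follow. The gene named TGM3, a transglutaminase of the cornified envelope and hair, has its name through a protein match, which a close transglutaminase could share. It was at 116, 768 and 1557 CPM in the center and 287, 424 and 550.1 CPM in skin (log2 fold change 0.89 ± 0.53, adjusted p = 0.146). Its center samples spread from below to above all skin samples, so the groups overlapped. Its 3 wounds H were at 1026 to 1557 CPM and its 3 wounds E at 116 to 509.5 CPM. TGM3 supplied most of the summed suprabasal level of the center, which was 189, 850 and 1697 CPM against 27800, 50940 and 71560 CPM in skin, and with the wounds of an animal summed it was the 1 member of the list that was higher (0.96, adjusted p = 0.00283). The keratins that migrating keratinocytes switch on were low as well. KRT6C was at 10, 32.4 and 154 CPM against 452, 889 and 1049 CPM in skin and KRT6B at 0.631, 2.45 and 13.4 CPM against 49.5, 173 and 253 CPM, both lower (log2 fold changes -4.07 ± 0.59 and -5.41 ± 0.67). These are near-identical copies, and 3 of the list's 5 symbols were not found in the table.

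Epidermal appendages and the enzymes of the epidermal barrier fell with the keratinocytes. In the hair follicle list 12 of 13 members tested were lower, with a median log2 fold change of -14.41, or -12.56 with the 6 genes without a center read at their bound, and without the skin of animal 1324 all 13 were lower. Most of them passed the filter on low counts only through their reads in skin. Of the 13, 2 passed it in the comparison with the day 7 edge and 1 in that with the day 1 center. A lower call was thus nearly fixed in advance, and the count only describes the list. Of 9 sebaceous and sweat gland genes 6 were lower and 2 higher. The simple-epithelium keratins KRT8 and KRT18 fell by 8.45 and 6.47 on the log2 scale, the sweat gland channel AQP5 by 4.73 and the proton pump subunit ATP6V1B1 by 5.37. AWAT2, a wax synthase of sebaceous glands, had no read in the center and was at least 46.4-fold lower. The 2 members that rose are lipid enzymes that other cells also use, SOAT1, which esterifies cholesterol (4.31 ± 0.18), and the fatty acid desaturase FADS2 (2.08 ± 0.26).

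Of 17 barrier lipid enzymes 14 were lower, 12 by at least 4-fold, and 2 higher, with a median log2 fold change of -7.13. SPTLC3, which starts ceramide synthesis, was at 162, 226 and 252 CPM in skin and 0, 0.388 and 0.478 CPM in the center (log2 fold change -9.52 ± 0.38). The lipoxygenase ALOXE3 fell by 9.15, the ceramide synthase CERS3 by 9.02 and the lipid transporter ABCA12 by 8.97 on the log2 scale. FA2H, which hydroxylates the fatty acids of ceramides, had 3 reads in the center, and the ratio of skin to center was 873 with a 95% counting interval of 299 to 4240. The highest log2 fold change of the list was 1.57, in a member not named here. The fatty acid elongase ELOVL1, which is not limited to the epidermis, rose less (0.49 ± 0.10).

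Most genes of cholesterol synthesis fell. Of 19 tested 13 were lower and 1 higher, with a median log2 fold change of -0.78, and the summed level was 586, 672 and 703 CPM in the center against 1302, 1564 and 1720 CPM in skin. DHCR7, a late enzyme of the pathway, was at 5.51, 7.79 and 12.1 CPM in the center and 80.5, 90.2 and 162 CPM in skin (log2 fold change -3.67 ± 0.22, adjusted p = 8.37e-09). Every center sample of DHCR7 was below every skin sample. MSMO1 fell by 2.26, SC5D by 2.14 and the early HMGCS1 by 1.90 on the log2 scale. The member that rose was INSIG1, which holds back the transcription of the pathway (1.01 ± 0.29, adjusted p = 0.00756), and its groups overlapped.

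Most genes of these cytokine families and some of their receptors rose. Of 18 genes of the interleukin-1 and IL-6 families 13 were higher, 9 of them by at least 4-fold, and 1 lower, with a median log2 fold change of 2.66. IL11, a cytokine of the IL-6 family made by stromal cells, was at 149, 179 and 237 CPM in the center and 0.062, 0.309 and 0.542 CPM in skin (log2 fold change 9.15 ± 0.28, adjusted p = 2.84e-11). The center samples of IL11 lay close together, unlike those of IL1B. IL6 rose to 3.6, 24.1 and 36.6 CPM from 0, 0.179 and 0.863 CPM (6.31 ± 0.68), OSM, a product of myeloid cells, to 4.96, 18 and 50 CPM from 0, 0.233 and 0.971 CPM (5.99 ± 0.83), and SOCS3, the feedback inhibitor of their receptors, to 213, 446 and 669 CPM from 10.9, 15.9 and 30.5 CPM (4.63 ± 0.35). None of these groups overlapped. Among the receptors, LIFR fell (-1.65 ± 0.17, adjusted p = 1.33e-06), IL1RAP rose by 1.88 ± 0.36 with overlapping groups, OSMR and IL1R1 rose by 1.27 and 1.08 on the log2 scale, and the shared chain IL6ST (-0.05 ± 0.15, adjusted p = 0.775), IL6R (-0.03 ± 0.21, adjusted p = 0.917) and the decoy IL1R2 (0.02 ± 0.56, adjusted p = 0.974) did not pass the threshold. Of the other ligands IL33 rose by 0.81 ± 0.19 and IL18 did not pass the threshold (0.22 ± 0.39, adjusted p = 0.626).

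Among 18 chemokines 12 were higher and 4 lower, with a median log2 fold change of 2.61. Beside CXCL8, the neutrophil chemokine CXCL2 rose to 123, 498 and 1639 CPM from 2.44, 4.22 and 5.96 CPM (log2 fold change 7.50 ± 0.71), and the monocyte chemokine CCL2 to 71.7, 153 and 655 CPM from 4.12, 7.06 and 9.24 CPM (5.04 ± 0.53). CCL4 rose by 7.78 and CCL20 by 6.17 on the log2 scale. The 4 that fell were CCL26, an eosinophil chemokine (-3.67 ± 0.71), CCL14 (-1.57 ± 0.30), the membrane-bound CX3CL1 (-1.37 ± 0.17) and CCL21 of lymphatic vessels (-1.11 ± 0.41, a call lost with the animal as replicate block, adjusted p = 0.204, and without any 1 of 6 libraries, named with the lymphatic genes). CXCL12 and CXCL9 did not pass the threshold (adjusted p = 0.251 and 0.292).

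All 15 interferon-stimulated genes tested were higher and none overlapped between the groups, with a median log2 fold change of 2.18. IFIT2 was at 40.1, 58.8 and 147 CPM in the center and 4.8, 6.22 and 7.57 CPM in skin (log2 fold change 3.58 ± 0.31). The antiviral GTPases MX2 and MX1 rose by 3.33 ± 0.23 and 3.15 ± 0.30, the ubiquitin-like ISG15 by 2.84 ± 0.33 and IFIT3 by 2.68 ± 0.22.

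Lipid mediators went both ways, with 5 of 15 prostaglandin and leukotriene genes higher and 5 lower, shares near those of all genes tested, and a median log2 fold change of 0.37. PTGS2, the inducible cyclooxygenase, rose to 34.1, 66.5 and 97.9 CPM from 7.03, 13.9 and 26.7 CPM (log2 fold change 2.21 ± 0.36) and the prostaglandin E synthase PTGES rose by 2.15. HPGD, which inactivates prostaglandins, fell to 0.587, 0.977 and 2.15 CPM from 17.2, 29.1 and 34.3 CPM (-4.69 ± 0.29). HPGDS, the prostaglandin D synthase of mast cells and Langerhans cells, fell by 4.62, and the lipoxygenases ALOX15 and ALOX5 by 2.57 and 2.30 on the log2 scale. PTGFR, the receptor of prostaglandin F and the most abundant member by CPM, passed the threshold with the animal as replicate block and not without it (0.68 ± 0.33, adjusted p = 0.0801, against 1.23, adjusted p = 0.00121), and also without the skin of animal 1326 or 1327 (adjusted p = 0.0198 to 0.0352).

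In the coagulation and fibrinolysis list 11 of 17 genes were higher and 2 lower, with a median log2 fold change of 0.88. PLAUR, the receptor of urokinase, rose to 207, 249.8 and 279 CPM from 5.58, 6.86 and 12.5 CPM (log2 fold change 5.02 ± 0.19). Both plasminogen activators rose, PLAU by 2.71 ± 0.19 and PLAT by 2.40 ± 0.19, as did the clot-crosslinking F13A1 (2.62 ± 0.29) and the anticoagulant PROS1 (2.09 ± 0.25). F3, the tissue factor that starts clotting, fell to 21, 49.7 and 57.2 CPM from 100, 182 and 218 CPM (-2.03 ± 0.27), with no overlap.

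Complement genes were higher in 11 of 18 and lower in 4, with a median log2 fold change of 1.27. The count of lower genes was 1 with the animal as replicate block and 2 without the center of wound H of animal 1324. The anaphylatoxin receptors C5AR1 and C3AR1, carried by myeloid cells, rose to 72.5, 146 and 245 CPM from 5.5, 9.79 and 13 CPM and to 63.8, 92.1 and 173 CPM from 7.46, 9.49 and 14.2 CPM (log2 fold changes 4.05 ± 0.35 and 3.36 ± 0.29). C2 rose by 2.78 ± 0.25, C3 by 2.13 ± 0.57 with overlapping groups (adjusted p = 0.00431, and 0.0552 with the animal as replicate block), and C1R by 1.95 ± 0.20. C5, the precursor of the ligand of C5AR1, fell to 0.69, 0.863 and 1.37 CPM from 4.93, 5.54 and 8.17 CPM (-2.62 ± 0.24).

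**Figure D3:**
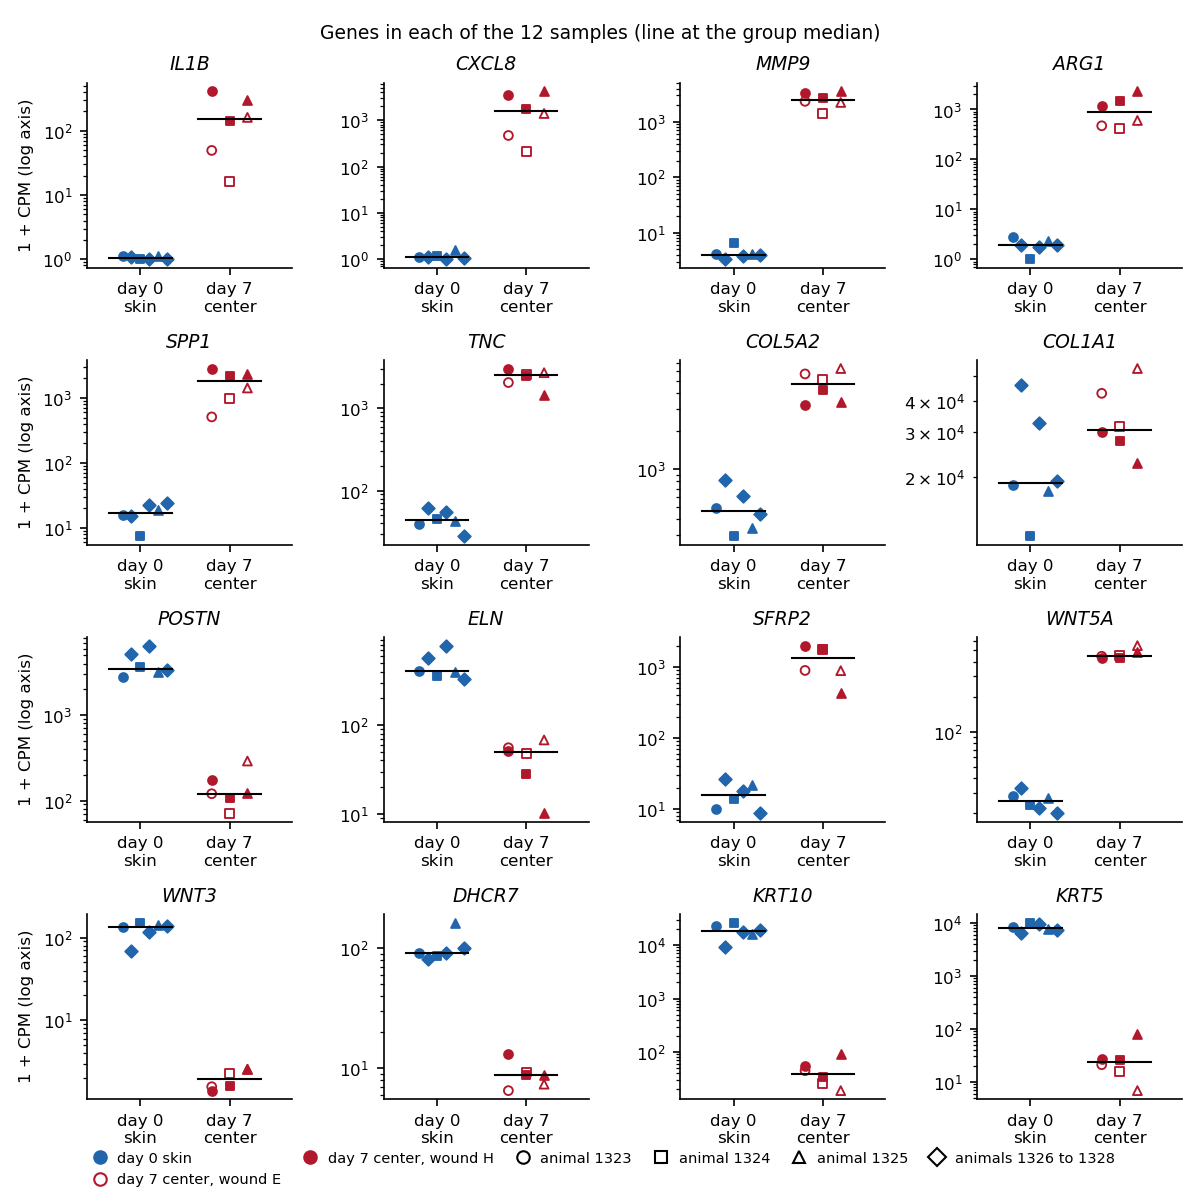
Each panel shows 1 gene as 1 + CPM on a log axis, with blue symbols for the 6 skin samples and red symbols for the 6 center samples (open for wound E, filled for wound H), and a line at the median of each group. In 15 of the 16 panels the groups are separate, and in COL1A1 they overlap, with medians of 30790 CPM in the center and 18860 CPM in skin.

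Markers of myeloid cells rose. Of 20 monocyte and macrophage markers tested 19 were higher, 13 by at least 4-fold, and 0 lower, with a median log2 fold change of 3.32, and their sum was 4177, 6819 and 8965 CPM in the center against 1288, 1514 and 1864 CPM in skin. The scavenger receptors MARCO and MSR1 rose to 1.03, 8.67 and 21.7 CPM from 0, 0 and 0.197 CPM (7.56 ± 1.04) and to 85.9, 106 and 139.9 CPM from 0.755, 1.59 and 1.87 CPM (6.19 ± 0.21). SPP1, osteopontin, which macrophages of injured tissue secrete, was at 510.1, 1797 and 2838 CPM against 6.42, 16.1 and 23.6 CPM (6.69 ± 0.49, adjusted p = 5.24e-08). ADGRE1, the F4/80 antigen, rose by 5.26 ± 0.43. Markers of resident macrophages moved less: MRC1 rose by 0.95 ± 0.32 (adjusted p = 0.0176, and 0.0561 with the animal as replicate block) and the complement subunits C1QA, C1QB and C1QC by 1.13, 1.35 and 1.19 with overlapping groups, while APOE did not pass the threshold (0.23 ± 0.20, adjusted p = 0.302).

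Among 12 neutrophil genes 9 were higher, all by at least 4-fold, and 1 lower, with a median log2 fold change of 3.50, and the sum was 292, 710.3 and 1917 CPM against 60.5, 88.3 and 119 CPM. CSF3R, the receptor of G-CSF, was at 70.7, 148 and 418 CPM in the center and 1.21, 2.17 and 5.02 CPM in skin (log2 fold change 6.27 ± 0.56). S100A9 and S100A8, the subunits of calprotectin, rose to 22.6, 101 and 313 CPM from 0.871, 2.27 and 4.34 CPM and to 9.67, 51.9 and 278 CPM from 0.654, 1.81 and 3.2 CPM (5.70 ± 0.67 and 5.45 ± 0.81). LTF, lactoferrin, which neutrophil precursors and glands make, fell (-4.60 ± 0.62), ELANE was not past the threshold (adjusted p = 0.132), and MPO and MMP8 did not pass the filter on low counts.

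Lymphocyte genes had few reads, and nearly all of them rose: 17 of 18 T and NK markers were higher and 0 lower, with a median log2 fold change of 3.46 and a sum of 265, 369 and 527 CPM against 129, 143 and 157 CPM. CD8B of cytotoxic T cells was at 2.69, 4.71 and 5.77 CPM against 0, 0.0272 and 0.31 CPM (log2 fold change 5.79 ± 0.59), and CD4 at 3.03, 6.37 and 8.33 CPM against 0.0986, 0.334 and 0.971 CPM (3.92 ± 0.46). The granule proteins GZMA and PRF1 rose by 4.39 ± 0.61 and 4.34 ± 0.43 and the interleukin-7 receptor IL7R by 4.59 ± 0.42. FOXP3 of regulatory T cells was the exception, at 0.645, 1.14 and 3.55 CPM against 0.0581, 1.04 and 1.19 CPM (0.94 ± 0.56, adjusted p = 0.152). CD247, the T cell receptor zeta chain, rose least (0.28 ± 0.11, adjusted p = 0.0289), and not past the threshold with the animal as replicate block (adjusted p = 0.0962) or without any 1 of 5 libraries, namely the skin of animals 1323, 1327 and 1328 and both centers of animal 1325 (adjusted p = 0.0583 to 0.0659). Of 12 B and plasma cell genes 8 were higher and 1 lower, and with the animal as replicate block 5 were higher. The immunoglobulin joining chain JCHAIN was at 4.36, 37.6 and 90.5 CPM against 4.14, 6.62 and 12.2 CPM (2.56 ± 0.62, adjusted p = 0.00241, and 0.134 with the animal as replicate block), with overlapping groups, and the coactivator POU2AF1 rose by 3.58 ± 0.65.

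Dendritic cell genes went both ways, mostly up. CCR7, the homing receptor of mature dendritic cells and naive T cells, rose to 21.6, 30.7 and 43.2 CPM from 0.345, 0.588 and 1.22 CPM (log2 fold change 5.62 ± 0.28), and LAMP3 of mature and XCR1 of cross-presenting dendritic cells rose by 2.59 ± 0.20 and 2.72 ± 0.33. CD207, langerin, the marker of the Langerhans cells of the epidermis, was at 0.394, 0.493 and 1.31 CPM against 1.13, 5.2 and 12.3 CPM (-2.94 ± 0.54), with overlapping groups. The IgE receptor chain FCER1A fell by 1.70 ± 0.37. In all, 7 of 9 members were higher and 2 lower, and CD1A, CD1B, CLEC9A and EPCAM were not found. Of 6 mast cell genes 3 were lower and 1 higher. HPGDS fell as given above, the IgE receptor chain MS4A2 fell by 1.00 ± 0.21 and KIT rose by 1.33 ± 0.26, while the histamine-forming HDC (-0.14 ± 0.55, adjusted p = 0.835) and GATA2 (-0.10 ± 0.23, adjusted p = 0.726) did not pass the threshold. The mast cell proteases were not found in the table, so the list lacks its defining markers.

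Among the fibrillar collagens, minor ones passed the threshold and the main chains did not in this test. Of 9 fibrillar collagen genes 6 were higher, all by at least 4-fold, and 0 lower, with a median log2 fold change of 2.17. The chains of collagen V, which starts fibrils and limits their width, rose most. COL5A2 was at 3242, 4693 and 6280 CPM in the center and 293, 467 and 824 CPM in skin (log2 fold change 3.22 ± 0.27, adjusted p = 2e-07), and COL5A1 and COL5A3 rose by 2.97 ± 0.28 and 2.73 ± 0.18. COL27A1 and COL24A1, fibrillar collagens of developing skeleton, rose by 2.36 ± 0.15 and 2.17 ± 0.40. In these 5 genes the groups did not overlap, and in COL11A1 they did (2.08 ± 0.57, adjusted p = 0.00515). COL1A1 was at 22660, 30790 and 53650 CPM in the center and 11630, 18860 and 45990 CPM in skin (0.52 ± 0.32, adjusted p = 0.16), COL3A1 differed by 0.64 ± 0.29 (adjusted p = 0.0618) and COL1A2 by 0.14 ± 0.30 (adjusted p = 0.7), and all 3 overlapped. The skin samples with the highest COL1A1 were those of animals 1326 and 1327, 45990 and 32620 CPM, which have no day 7 wound. Leaving out the skin of animal 1326 brought COL1A1 past the threshold (adjusted p = 0.0212), and leaving out the skin of 1326 or 1327 or the center of wound H of 1323 did so for COL3A1 (adjusted p = 0.0191 to 0.0395), as did no TMM scaling, DESeq2, the fit of all 150 samples and wounds E alone (adjusted p = 0.0473, 0.0412, 0.0326 and 0.0198). Against the skin of animals 1323 to 1325 alone, which was at 11630 to 18530 CPM, the log2 fold changes were 1.12 for COL1A1, 1.14 for COL3A1 and 0.71 for COL1A2 (adjusted p = 0.00706, 0.00708 and 0.0409), and against the skin of the other 3 animals that of COL1A2 was -0.28 (adjusted p = 0.432). On the FPKM scale, which divides by gene length, the mean level in the center was 6581 for COL3A1, 5947 for COL1A1, 4261 for COL1A2 and 665 for COL5A2, against 4380, 4302, 4019 and 74 FPKM in skin. COL5A2 thus stayed well below the main chains in both groups. The COL5A2 gene (ENSSSCG00025066689) lies on contig LUXX01068706.1 from 815477 to 1184417 (minus strand) of the deposited table.

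Enzymes that modify and crosslink collagen were higher in 18 of 21, 10 by at least 4-fold, and lower in 1, with a median log2 fold change of 1.87 and a sum of 6613, 7141 and 8896 CPM against 2003, 2287 and 3355 CPM. PLOD2, a lysyl hydroxylase that prepares collagen for crosslinking, was at 138, 211 and 263 CPM in the center and 7.82, 10 and 11.9 CPM in skin (log2 fold change 4.37 ± 0.16, adjusted p = 8.32e-11). The prolyl hydroxylase subunit P4HA3 rose by 4.35 ± 0.40, the lysyl oxidases LOXL2 and LOXL3 by 3.96 ± 0.23 and 3.42 ± 0.27, and the procollagen protease BMP1 by 3.11 ± 0.21. LOX, the founding member of the oxidase family, was at 219.5, 368 and 516 CPM and 195, 252 and 676 CPM (0.07 ± 0.31, adjusted p = 0.84, against 0.70, adjusted p = 0.0262, with the animal as replicate block) and LOXL4 did not pass the threshold either (adjusted p = 0.3). P3H1, a prolyl 3-hydroxylase, was the member that fell (-1.44 ± 0.17).

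Matricellular proteins, which sit in matrix and act on cells, included large rises and large falls. Of 17 tested 13 were higher and 3 lower, with a median log2 fold change of 2.39. TNC, tenascin-C of wound matrix, was at 1461, 2534 and 3052 CPM in the center and 26.7, 42.5 and 60 CPM in skin (log2 fold change 5.77 ± 0.25, adjusted p = 3.39e-10), and fibronectin, FN1, at 2820, 6863 and 11580 CPM and 369.5, 439.5 and 771 CPM (3.71 ± 0.33, adjusted p = 3.69e-07). CCN4, a WNT-induced secreted protein, rose by 4.52 ± 0.36. POSTN, periostin, went the other way, at 69.6, 120.0 and 289 CPM in the center and 2750, 3497 and 6486 CPM in skin (-4.81 ± 0.37, adjusted p = 8.25e-08), with every center sample far under every skin sample. The other 2 that fell were CCN3 (-3.23 ± 0.53) and SPARCL1 (-3.02 ± 0.46). The POSTN gene (ENSSSCG00025049827) lies on contig LUXX01036174.1 from 1229537 to 1310612 (plus strand).

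Small leucine-rich proteoglycans and elastic fiber genes split, with 9 of 21 higher and 7 lower, shares near those of all genes tested, and a median log2 fold change of -0.07. ASPN, BGN, FMOD and LUM, proteoglycans that bind collagen, rose by 4.18 ± 0.41, 3.30 ± 0.14, 3.10 ± 0.29 and 2.30 ± 0.25. DCN, decorin, the most abundant member by CPM, did not pass the threshold (-0.25 ± 0.26, adjusted p = 0.398). ELN, elastin, was at 9.12, 48.6 and 67.1 CPM in the center and 326, 402 and 783 CPM in skin (-3.47 ± 0.41, adjusted p = 5.26e-06), and the microfibril proteins EFEMP1 and LTBP4 fell by 2.84 ± 0.48 and 2.72 ± 0.18. FBN1, fibrillin-1, and FBLN2 rose by 1.72 ± 0.23 and 1.98 ± 0.22.

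Of 13 metalloproteinases and their inhibitors 10 were higher, 8 by at least 4-fold, and 2 lower, with a median log2 fold change of 2.52, and the sum was 10480, 11790 and 16760 CPM against 1448, 1877 and 3177 CPM. The collagenases MMP1 and MMP13 rose to 20.2, 212 and 346 CPM from 0.29, 0.509 and 0.593 CPM (log2 fold change 8.78 ± 0.71) and to 1.45, 41.5 and 137 CPM from 0, 0.414 and 0.599 CPM (7.38 ± 1.01). MMP12, the macrophage elastase, rose to 47, 115 and 391 CPM from 0.0545, 0.857 and 4.26 CPM (6.65 ± 0.79). The inhibitor TIMP1 rose with them, to 359.9, 570.0 and 1048 CPM from 25.4, 28.7 and 35.9 CPM (4.36 ± 0.24), while TIMP3, the matrix-bound inhibitor, fell (-1.81 ± 0.24). MMP2, the gelatinase of fibroblasts, was the most abundant member by CPM, at 3410, 5330 and 8833 CPM against 601, 833 and 1635 CPM (2.52 ± 0.31). MMP7, made by gland epithelium, fell to 0, 0.118 and 0.379 CPM from 5.41, 11.5 and 17.1 CPM (-6.36 ± 0.53).

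Contractile genes went both ways, with 6 of 12 higher, 4 lower and a median log2 fold change of 0.33. ACTA2, smooth muscle actin, the usual marker of myofibroblasts, was at 268, 414 and 707 CPM in the center and 288, 391 and 608 CPM in skin (0.12 ± 0.24, adjusted p = 0.667), with overlapping groups. The tropomyosins TPM2 and TPM1 and caldesmon CALD1, which many cells use, rose by 1.98 ± 0.21, 1.76 ± 0.21 and 1.67 ± 0.16. The genes of mature smooth muscle fell: MYH11 to 5.57, 35.1 and 48.5 CPM from 288, 342 and 561 CPM (-3.59 ± 0.41), ACTG2 by 2.89 ± 0.44 and CNN1 by 1.84 ± 0.27 on the log2 scale.

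In the TGF-beta and activin pathway 10 of 17 genes were higher and 4 lower, with a median log2 fold change of 0.56. All 3 ligands of the TGF-beta branch rose, TGFB1 to 166, 193 and 213 CPM from 26.9, 29.7 and 36.5 CPM (2.66 ± 0.10), TGFB2 by 1.65 ± 0.20 and TGFB3 by 1.45 ± 0.30. The receptor TGFBR2 rose by 1.01 ± 0.14. Of the secreted activin antagonists, FSTL3 rose by 2.02 ± 0.14 and FST fell by 2.33 ± 0.41, and LTBP3, which stores latent TGF-beta, fell by 1.84 ± 0.19.

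Fibroblast markers were higher in 6 of 12 and lower in 0, with a median log2 fold change of 0.89, and 10 were higher with the animal as replicate block. PDGFRA, the PDGF receptor of fibroblasts, was at 384, 729 and 995 CPM in the center and 55, 63.4 and 89.1 CPM in skin (3.44 ± 0.23), and PDGFRB rose by 2.48 ± 0.22. FAP, a surface protease of activated fibroblasts, rose by 1.65 ± 0.19 and the mesenchymal regulator PRRX1 by 1.53 ± 0.24. THY1 and CD34 did not pass the threshold (adjusted p = 0.382 and 0.923), and THY1 did so with the animal as replicate block (adjusted p = 0.0486).

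All 15 genes of blood vessel endothelium were higher, 4 by at least 4-fold, with a median log2 fold change of 1.64 and a sum of 1723, 2213 and 2994 CPM against 479, 621 and 785 CPM. PLVAP of fenestrated vessels was at 229, 397 and 475 CPM in the center and 41.7, 52.9 and 63.5 CPM in skin (2.81 ± 0.17, adjusted p = 8.72e-09), and PECAM1, present on all endothelium, at 493, 597 and 759 CPM and 122, 161 and 213 CPM (1.93 ± 0.14). Of 19 angiogenic and tip cell genes 18 were higher and 0 lower, with a median of 1.74. CXCR4, the receptor of CXCL12 on tip cells and leukocytes, rose by 4.06 ± 0.53, the apelin receptor APLNR by 3.27 ± 0.31, the tip cell protein ESM1 by 2.88 ± 0.29, the VEGF receptor KDR by 2.33 ± 0.20 and VEGFA itself by 1.10 ± 0.26. Of 7 pericyte genes 5 were higher and 1 lower: MCAM, ABCC9 and KCNJ8 rose by 2.26 ± 0.11, 2.29 ± 0.40 and 1.77 ± 0.30, CSPG4 rose by 0.41 ± 0.15 (adjusted p = 0.0261, and 0.184 with the animal as replicate block), NOTCH3 fell by 1.48 ± 0.18, and RGS5 did not pass the threshold (0.34 ± 0.23, adjusted p = 0.203). The call of CSPG4 was lost without any 1 of 5 libraries, namely the skin of animals 1323, 1325, 1326 and 1328 and the center of wound E of animal 1325 (adjusted p = 0.0509 to 0.0639).

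Lymphatic genes went both ways, with 2 of 7 higher and 2 lower, smaller shares than those of all genes tested. The lower ones depended on the samples: 5 were lower with wounds H alone, and 0 with wounds E alone or with the animal as replicate block. PROX1, the regulator that defines lymphatic endothelium, was at 0.627, 1.35 and 2.64 CPM in the center and 0.986, 2.79 and 5.01 CPM in skin (-0.90 ± 0.43, adjusted p = 0.0786), the receptor FLT4 differed by -0.07 ± 0.26 (adjusted p = 0.816) and MMRN1 by -0.19 ± 0.36 (adjusted p = 0.653). With wounds H alone FLT4 and MMRN1 were lower (-0.64, adjusted p = 0.0247, and -1.05, adjusted p = 0.00797). The 2 genes that rose, LYVE1 (2.20 ± 0.29) and PDPN (1.93 ± 0.24), are also carried by macrophages and fibroblasts. CCL21 and RELN fell by 1.11 ± 0.41 and 0.77 ± 0.31, and neither call remained with the animal as replicate block (adjusted p = 0.204 and 0.121). Leaving out any 1 of 6 libraries ended the call of CCL21, namely the skin of animals 1327 and 1328 and the centers of wounds H of 1323 and 1325 and both wounds of 1324 (adjusted p = 0.0553 to 0.0655), and for RELN any 1 of 9, all but the skin of animals 1324 and 1326 and the center of wound E of animal 1323 (adjusted p = 0.0525 to 0.0879). PROX1 was lower past the threshold without the skin of animal 1326 or the center of wound E of animal 1323 (adjusted p = 0.0325 to 0.0341).

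WNT genes moved in both directions. Of 23 tested 6 were higher and 12 lower, with a median log2 fold change of -1.04. SFRP2, a WNT-binding protein of fibroblasts, was at 434, 1330 and 2002 CPM in the center and 7.67, 14.9 and 25.6 CPM in skin (6.38 ± 0.48, adjusted p = 6.19e-08), and WNT5A, a ligand of the non-canonical pathway, at 429, 448 and 547 CPM and 18.8, 24.2 and 31.7 CPM (4.25 ± 0.14, adjusted p = 2.99e-11). WNT5A had the narrower spread, with all 6 center samples between 429 and 547 CPM. The epithelial ligands fell: WNT3 to 0.424, 0.97 and 1.63 CPM from 68.4, 134 and 149.7 CPM (-6.90 ± 0.33), WNT10A by 6.08 ± 0.30 and WNT16 by 7.89 ± 0.56 on the log2 scale. LGR5, a receptor of hair follicle stem cells, fell to 0, 0.105 and 0.293 CPM from 29.6, 35.4 and 56.2 CPM (-8.08 ± 0.37), and AXIN2, a target of canonical signalling, fell by 1.71 ± 0.29.

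Cell cycle genes were higher in 26 of 29 and lower in 0, but moderately, with a median log2 fold change of 1.22 and 1 gene past 4-fold. The sum was 1129, 1309 and 1819 CPM in the center and 625, 648 and 723 CPM in skin, without overlap. The mitotic kinase PLK1 was at 36.6, 42.4 and 63.6 CPM against 7.3, 10.3 and 10.9 CPM (2.28 ± 0.16) and MKI67 at 77.2, 102 and 128 CPM against 28.6, 43 and 56.6 CPM (1.23 ± 0.18). Genes of mitosis (KIF20A 1.96, CCNB1 1.96, CDK1 1.86) had larger log2 fold changes than those of DNA replication (MCM6 0.76, MCM3 0.72), a contrast named after its values were seen.

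Hypoxia and glycolysis genes were higher in 10 of 18 and lower in 4, with a median log2 fold change of 0.83. The glucose transporter SLC2A3, abundant in myeloid cells, rose to 211, 619 and 959.8 CPM from 12.7, 17.5 and 26.9 CPM (5.05 ± 0.42), the glycolytic activator PFKFB3 by 2.93 ± 0.29 and the lactate dehydrogenase LDHA by 2.45 ± 0.25. GAPDH rose by 0.94 ± 0.16. PDK1, a target of HIF that keeps pyruvate out of mitochondria, fell (-2.20 ± 0.13), as did the HIF targets BNIP3 (-1.24 ± 0.15) and EGLN3 (-1.45 ± 0.41, adjusted p = 0.00664, and 0.0647 with the animal as replicate block). Other members of the hypoxia list rose, ADM by at least 4-fold and VEGFA as given with the angiogenic genes. Respiratory chain genes were nearly level, with a median log2 fold change of 0.23. Of 24 tested 15 were higher and 1 lower (NDUFV1, adjusted p = 0.0279, and 0.114 with the animal as replicate block), and 6 were higher with the animal as replicate block and 9 without TMM scaling. The largest rise was in NDUFA2 of complex I (1.04 ± 0.12).

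Other cells of skin changed in smaller lists. The Schwann cell list had 7 of 10 genes lower and 1 higher. The neuregulin receptor ERBB3 fell by 5.50 ± 0.20 on the log2 scale and the neural crest regulator SOX10 to 0.0587, 0.601 and 0.946 CPM from 5.07, 8.07 and 10.2 CPM (-3.87 ± 0.44). Melanocyte genes went both ways. MLANA had no read in skin and was at 1.04, 3.42 and 5.72 CPM in the center, at least 121-fold higher, SLC45A2 and KIT rose by 2.15 ± 0.49 and 1.33 ± 0.26, PMEL and MITF fell by 1.73 ± 0.28 and 0.77 ± 0.15, and TYR had no read in any of the 12 samples.

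Adipocyte genes were higher in 3 of 12 and lower in 3, smaller shares than those of all genes tested (35.3% and 35.7%). ADIPOQ, which fat cells secrete, was at 26.6, 514 and 772 CPM in the center and 48.7, 271 and 887 CPM in skin (0.53 ± 0.72, adjusted p = 0.522), LEP fell by 2.21 ± 0.83 (adjusted p = 0.0289, and 0.0591 with the animal as replicate block) and DGAT2 by 3.53 ± 0.34, and CD36 and LPL, also genes of macrophages, rose by 1.88 ± 0.53 and 1.50 ± 0.32. The call of LEP was lost without any 1 of 6 libraries, namely the skin of animals 1323 and 1325 and both centers of animals 1323 and 1325 (adjusted p = 0.0505 to 0.0941). In the skeletal muscle list TTN and ACTA1 passed the threshold (4.55 ± 1.32, adjusted p = 0.00741, and 4.34 ± 1.50). Their size rested on 1 library. TTN was at 2.22 to 3.99 CPM in 5 center samples and at 233 CPM in wound H of animal 1324, and without that library TTN differed by 0.90 and stayed past the threshold (adjusted p = 0.00971), while ACTA1 did not pass it (-0.084, adjusted p = 0.915). With the animal as replicate block 0 genes were higher (TTN 1.96, adjusted p = 0.307, and ACTA1 1.60, adjusted p = 0.517). MYH2, TNNC2, TNNI2 and CKM did not pass the threshold (log2 fold changes 1.21, 0.74, 0.68 and 0.45), and without that library MYH2 and CKM were lower (-6.72, adjusted p = 2.89e-05, and -4.39, adjusted p = 6.49e-05). Globin genes were higher, HBB at 9.41, 25.4 and 107 CPM against 0.378, 3.03 and 17.1 CPM (2.85 ± 0.77) and HBA by 3.24 ± 0.75, with overlapping groups and reads that the globin copies may share, and the heme enzyme ALAS2 rose by 3.09 ± 0.66. HBM rose by 1.58 ± 0.57 and HEMGN, a regulator of red cell precursors, fell by 1.27 ± 0.29, and the call of HBM was lost without the center of wound H of animal 1323 (adjusted p = 0.0749), the library with the most globin reads.

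The center of both wounds of each animal, E and H, was sampled on day 7, and the values of H and E were compared within animals, a comparison chosen after values were seen and given with no test. Of 40 gene lists, 16 had a higher sum in wound H than in wound E in 3 of 3 animals and 9 had a higher sum in wound E, while of 14717 genes 3620 (24.6%) were higher in H in all 3 animals and 3010 (20.5%) in E. The 16 were interleukins, chemokines, coagulation, interferon-stimulated, hypoxia, respiratory chain, cholesterol synthesis, barrier lipid, gland, suprabasal, Schwann cell, skeletal muscle, neutrophil, macrophage, dendritic cell and T and NK lymphocyte genes. The gland sum differed little (ratios of H to E 1.09, 1.13 and 1.03), and its members split. SOAT1 was higher in wound H (1.21, 1.2 and 1.09) and AQP5 in wound E (0.486, 0.824 and 0.312). ELOVL4 of the barrier lipid list was also higher in wound E in 3 of 3 animals (0.329, 0.83 and 0.687). Complement and prostaglandin genes differed in direction between animals (0.846, 1.35 and 0.89, and 1.26, 0.951 and 0.981). The ratio of H to E in animals 1323, 1324 and 1325 was 2.12, 4.0 and 3.46 for neutrophil genes, 2.07, 1.86 and 1.57 for macrophage genes and 2.86, 1.74 and 2.12 for chemokines. It was 1.62, 1.6 and 1.56 for hypoxia and glycolysis genes. The suprabasal ratios were 5.61, 6.01 and 3.01, and without TGM3 they were 1.21, 1.54 and 6.39. The 9 on the side of wound E were fibrillar collagens, matricellular proteins, proteoglycans and elastic fibers, metalloproteinases, contractile, TGF-beta, fibroblast, endothelial and pericyte genes, with ratios of 0.61, 0.905 and 0.482 for fibrillar collagens, 0.576, 0.74 and 0.894 for endothelial genes and 0.619, 0.891 and 0.73 for pericyte genes. A sum weighs its abundant members most, and not every member followed it. Among metalloproteinases, the abundant MMP2 was higher in wound E (0.386, 0.756 and 0.557) and MMP9 in wound H (1.39, 1.93 and 1.58). TGFB1 (1.28, 1.15 and 1.14) and the matricellular SPP1 (5.56, 2.25 and 1.61) were also higher in wound H in 3 of 3 animals. Collagen-modifying enzymes (0.882, 1.05 and 0.743), lymphatic (0.528, 0.887 and 1.17) and angiogenic genes (0.92, 1.04 and 1.23) differed in direction between animals. The labels give no position for the wound letters.

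**Figure D4:**
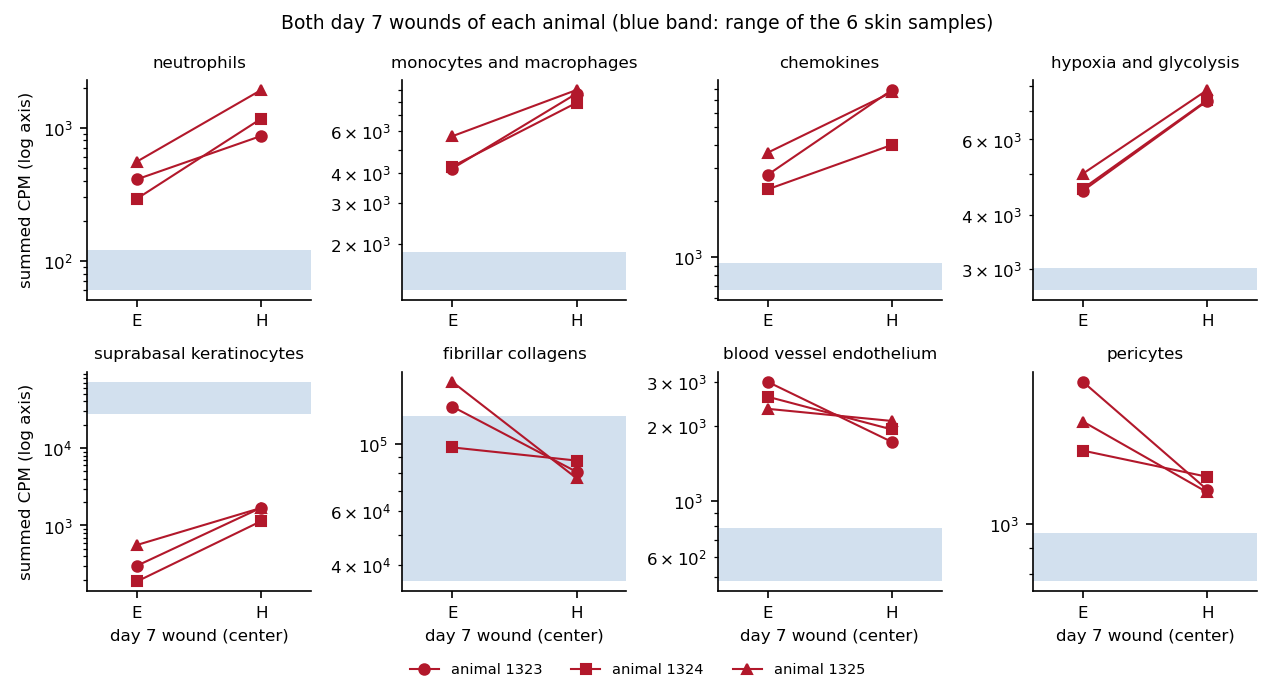
Each line joins the summed CPM (y axis, log scale) of a gene list in wounds E and H of 1 animal on day 7, and the blue band spans the 6 skin samples. The 5 lists from neutrophils to suprabasal keratinocytes rise from E to H in 3 of 3 animals, the last of them mostly through TGM3 in animals 1323 and 1324, and fibrillar collagens, endothelium and pericytes fall in 3 of 3.

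The day 7 center was then placed among other states of the wounds. These comparisons use the same day 7 center samples, so they are not independent of the first, and each list's counts are given side by side. Against the edge of the same 6 wounds, 2433 of 14303 genes were higher in the center (17.0%) and 2907 lower (20.3%), and with the wound as replicate block 2597 and 2857. Of 17 suprabasal genes 16 were lower in the center than at the edge, and of the 15 interferon-stimulated genes 1 was lower and 0 higher. Of the cell cycle genes 0 of 29 differed between center and edge, whereas endothelial genes were higher in the center in 9 of 15, angiogenic genes in 13 of 19, macrophage genes in 7 of 20 and collagen-modifying enzymes in 13 of 21. Cholesterol synthesis was lower in the center in 15 of 19. The log2 fold change of center over edge was 0.99 for COL5A2 (adjusted p = 0.00062), 1.23 for PLOD2 (adjusted p = 7.29e-05) and 1.59 for IL1B (adjusted p = 0.255).

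By the naming rule, FLG2, an epidermal structural protein, had the largest fall from edge to center, from 15.9, 78.1 and 160.0 CPM at the edge to 0, 0.0262 and 0.341 CPM in the center (log2 fold change -9.38, adjusted p = 1.07e-06), followed by the interleukin-22 receptor IL22RA1 (-9.16) and the estrogen sulfotransferase SULT1E1 (-9.08). SPHKAP, an anchor of protein kinase A, had the largest rise, from 0.292, 1.03 and 1.47 CPM at the edge to 3.64, 15.6 and 36.0 CPM (4.19, adjusted p = 3.27e-05). The rises of TTN and RYR1 (3.73 and 3.29) had their highest center values, 233 and 64.7 CPM, in the library with the raised skeletal muscle sum. Values of these rises without that library are not given.

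Against the day 1 center of the same animals, 2557 of 14054 genes were higher on day 7 (18.2%) and 3139 lower (22.3%). Without TMM scaling these counts were 1792 and 4899, the share of calls that were higher fell from 44.9% to 26.8%, and the median log2 fold change moved from -0.06 to -0.25. Matrix genes were the higher ones: 7 of 9 fibrillar collagens and 17 of 21 collagen-modifying enzymes rose from day 1 to day 7, among them COL1A1 (3.11, adjusted p = 1.7e-06) and COL1A2 (2.88, adjusted p = 1.52e-06). Cell cycle genes rose in 22 of 29 and contractile genes in 8 of 12. Interferon-stimulated genes went the other way, with 14 of 15 lower on day 7 than on day 1, and 12 of 12 adipocyte genes and 18 of 24 respiratory chain genes were lower too. In endothelial genes 1 of 15 was higher and 0 lower.

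By the same naming rule LEP had the largest fall between these days, from 62.2, 149 and 286 CPM on day 1 to 0.146, 0.789 and 3.79 CPM on day 7 (log2 fold change -6.93, adjusted p = 2.35e-05), with PTX3, a secreted pattern receptor of inflamed tissue, next (-5.92, adjusted p = 0.000798). FRMD7, listed at 0 in every day 1 center, was at 17.7, 23.1 and 53.3 CPM on day 7, and the neuronal microtubule regulator STMN2 rose from 0, 0 and 0.0989 CPM to 10.8, 17.2 and 59.2 CPM (9.59, adjusted p = 1.99e-06).

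From day 7 to day 11 the center changed little past the threshold, with 13 of 13972 genes higher on day 11 (0.093%) and 5 lower (0.0358%) in edgeR, 2953 at an unadjusted p below 0.05, and 477 higher and 439 lower in DESeq2. Leaving out 1 library moved these counts from 0 and 0 (without the day 7 center of wound H of animal 1324 or wound E of 1325) to 75 and 99 (without day 11 center replicate 2). PTGS2 fell from 33.7, 67.4 and 98.7 CPM to 10.4, 17.3 and 33.7 CPM (log2 fold change -1.87, adjusted p = 0.0416), and the adrenergic receptor ADRA2A rose from 6.57, 9.69 and 17.3 CPM to 29.2, 32.4 and 51.9 CPM (1.83, adjusted p = 0.0161).

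**Figure D5:**
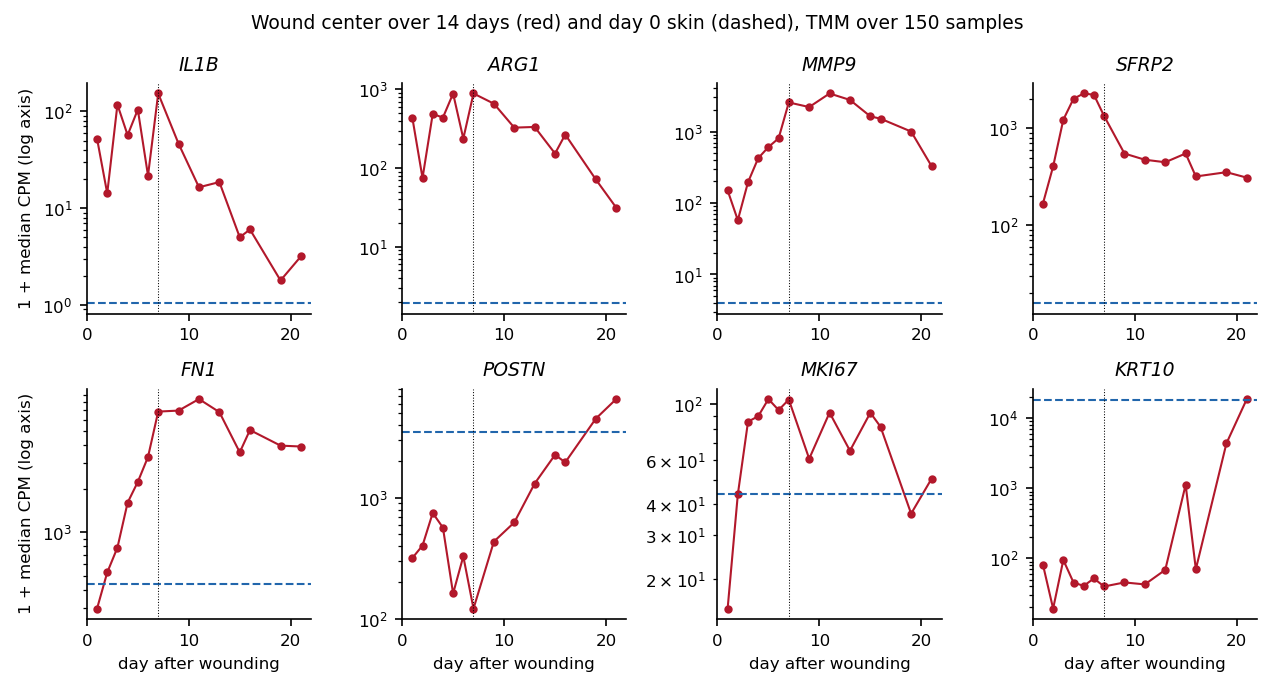
Each panel plots 1 + the median CPM of 1 gene in the wound center (y axis, log scale) against the day after wounding (x axis), with a dashed line at the day 0 skin median and a dotted line at day 7. IL1B and ARG1 are highest on day 7, SFRP2 and MKI67 on day 5 and FN1 and MMP9 on day 11, POSTN is lowest on day 7, and KRT10 returns from 38.8 CPM on day 7 to 18740 CPM on day 21.

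Over the 14 sampled days, as a description of center medians with TMM scaling over all 150 samples and no test, genes that were extreme on day 7 reached their peaks at different times. Days 1, 3, 5, 7, 11, 15 and 21 came from animals 1323 to 1325 and the others from animals 1326 to 1328, so a step between neighbouring days of the first week and a difference between animals cannot be told apart. Within animals 1323 to 1325 the median of IL1B was 51.4 CPM on day 1, rose to 117 by day 3 and to 152 on day 7, with 104 between them on day 5, and had fallen to 15.5 by day 11, and that of ARG1 was 436, 486, 883, 886 and 325 CPM. Both medians were highest on day 7 and lower on day 11. In the separate edgeR test of day 11 against day 7 these falls did not pass the threshold. The log2 fold changes were -2.44 for IL1B and -1.68 for ARG1 (adjusted p = 0.183 and 0.123). MMP9 rose from 149 CPM on day 1 to 2550 CPM on day 7 and 3405 CPM on day 11, and FN1 from 294 CPM to 6853 CPM and 8370 CPM on the same days. Neither rise from day 7 to day 11 passed the threshold in that edgeR test (MMP9 0.48, adjusted p = 0.379). POSTN fell from 3474 CPM in skin to its lowest center median on day 7, 120.1 CPM, and reached 6558 CPM on day 21. SFRP2 had passed its highest median, 2295 CPM on day 5, and was at 1344 CPM on day 7. The keratinocyte gene KRT10 stayed at or under 93.9 CPM from day 1 to day 13 and was at 18740 CPM on day 21, against 17940 CPM in skin.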

How the data were processed

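Samples of mRNA, enriched for poly-A and sequenced as paired reads by a provider, were summarised by the authors as a deposited table of read counts per gene, without normalization. They also deposited FPKM values, used here only to compare levels between genes. The aligner, the counting tool and the genome build are not given in the sources used here. The table lists 30461 genes on 2337 contigs. Names came from the table (12300 genes), the description (69) or its protein match (8227), and 9865 genes stayed unnamed. Of 645 list symbols 595 were found. Reads of unnamed genes stay in the library totals.

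Groups, animals and wounds came from the sample labels. Counts were tested with edgeR 4.0.16 (R 4.3.3, limma 3.58.1, TMM, the filterByExpr filter at a count of 10 and a total of 15, robust quasi-likelihood fit, Benjamini-Hochberg adjustment over all genes tested, threshold 0.05). Intervals and bounds use 3 reads or an exact 95% Poisson interval and cover counting error only. The members and gene lists were chosen with earlier results of these data known, and no list was tested as a set. Genes named are the 10 largest changes in each direction without overlap (mean count of at least 100), the 5 with the largest share of counts in each group, IL1B and KRT10, the most abundant member of each list and its 5 largest changes past the threshold, and all members of lists with 8 or fewer tested. The 3 largest differences in each direction from the edge, day 1 and day 11 were also listed, and only some of those from day 1 and day 11 are named. Other members, such as TGM3, LOX, ACTA2, WNT5A, PROX1 and MKI67, were named after their values were seen. Standard errors came from the fitted log2 fold change and its test.

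The animal is a real pairing, since animals 1323 to 1325 gave both groups. Deviations of an animal's skin and center from their group means correlated across genes with r of 0.172, 0.0133 and 0.0708. Alternatives were no TMM, DESeq2 1.42.0, no filter, a minimum count of 50, the animal or wound as replicate block, summed wounds, the skin of the same or the other 3 animals, all 150 samples in one fit, a test against a 2-fold change, the 10 most abundant genes left out of the scaling and each library left out. Added after the values were seen were wounds E or H alone, both libraries that stood apart left out, and the same 3 animals with the block. On simulated counts for this comparison (14943 genes), edgeR called 60% of genes changed 2-fold and 91% of those changed 4-fold, with 3.21% false calls. DESeq2 (23174 genes) called 67% and 92%, with 18% false. The simulation changed a small share of the genes and drew every library independently. It therefore did not cover wounds that share an animal, or differences in most genes, and its false call shares do not extend to them. Tables and figures used Python 3.11.15, pandas 2.3.3, scipy 1.17.1 and matplotlib 3.10.9. A few list members are not reported here by name, no sequence is shown, and wound images and raw reads were not analysed here.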

Additional observations from a re-analysis of the deposited data

Results flagged for a closer look

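Values of single samples that lay far from the other 5 of their group were looked for in 136 groups, and 15 were found. The groups were total counts, list sums and the genes named for the largest changes or the largest shares of counts. The other named genes were not screened in this way. Chance alone gives about 1 in 20 groups where values spread normally, which skewed CPM values need not do, and in 5 of the 15 the other values of the group were all 0, so that any read met the criterion. No explanation was tested for any of them. In the center, the skeletal muscle sum was 483 CPM in wound H of animal 1324 (9.67 to 14.8 CPM in the other 5). The erythrocyte sum was 147 CPM in wound H of animal 1323 (15.7 to 54.9 CPM), and the prostaglandin and leukotriene sum of the same library was 533 CPM (403 to 441 CPM). Wound H of animal 1325 stood apart in 4 values: the wound-activated keratin sum at 168 CPM (10.7 to 42.4 CPM), KRT1 at 93.9 CPM (11.2 to 34.8 CPM), DCSTAMP at 30.4 CPM (12.5 to 18.2 CPM) and SAA2 at 732 CPM (8.54 to 255 CPM). KRT33B, KRTAP11-1 and TCHH were at 0.0631 CPM, 1 read each, in wound E of animal 1325 and had no read in the other centers.

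In skin, the cell cycle sum was 723 CPM in animal 1323 (625 to 656 CPM in the other 5), CXCL8 was 0.558 CPM in animal 1325 (0 to 0.162 CPM) and MMP9 was 5.45 CPM in animal 1324 (2.32 to 3.16 CPM). ACOD1 was at 0.21 CPM in animal 1323 and TM4SF19 at 0.0581 CPM, 1 read, in animal 1328, with no read in the other skin samples.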

How the results depend on the processing

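Against day 0 skin, the counts of higher and lower genes ranged over the alternatives from 2054 and 2304, in the test against a 2-fold change, to 5831 (no filter) and 6449 (DESeq2), and from 5051 to 5248 and 5123 to 5378 with each library left out. Against the edge, each library left out gave 1987 to 2957 higher and 2586 to 3272 lower, and against day 1 2310 to 2868 and 2637 to 2988. Without TMM 4899 genes were lower than on day 1. From day 7 to day 11, DESeq2 gave 477 higher and 439 lower, no TMM gave 8 higher, and each library left out gave 0 to 75 and 0 to 99. The replicate block gave 4537 higher and 4648 lower genes against skin, 2597 and 2857 against the edge, and 19 and 6 from day 7 to day 11, and among the named genes its changed calls stand beside them in the text, except for ATP5F1B (adjusted p = 0.231) and COX5B (adjusted p = 0.0873), which lost theirs. Of the alternative counts of genes past the threshold, 48 stayed within 1.5 times and 6 did not. Of the values of named genes, 3360 kept their direction and side of the threshold under alternatives other than leaving out a library, 97 lost the threshold, 24 passed it newly and 34 turned.

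Directions that turned were those of genes near 0 and of the muscle genes, with log2 fold changes as follows. The cause was not tested. Each of CKM, MYH2, TNNI2 and ACTA1 turned when wound H of animal 1324 alone was left out. With the animal as block, DCN was 0.083, CKM -1.97, MYH2 -2.60, GATA2 0.11 and MMRN1 0.023. With the skin of the same 3 animals, DCN was 0.10, GATA2 0.085 and MMRN1 0.019, and with the block added DCN 0.074, CKM -1.98, MYH2 -2.61, GATA2 0.10 and MMRN1 0.016. With the skin of the other 3 animals, COL1A2 was -0.28, SPARC -0.20 and ANXA2 0.059. With wounds E alone, DCN was 0.022, ACTA1 -0.35, CKM -4.67, MYH2 -8.81, TNNI2 -0.74, GATA2 0.20, XBP1 0.0, FLT4 0.36 and MMRN1 0.37. With wounds H alone, COL1A2 was -0.20, SPARC -0.14 and RGS5 -0.066. With both libraries that stood apart left out, ANXA2 was 0.002, CKM -4.09, MYH2 -6.75, TNNI2 -0.32, HDC 0.28 and FLT4 0.041. With single libraries left out, COL1A2 ranged from -0.015 to 0.37, HDC from -0.56 to 0.12, FLT4 from -0.34 to 0.039, GATA2 from -0.22 to 0.009, ACTA1 from -0.084 to 4.59, CKM from -4.39 to 0.75, MYH2 from -6.72 to 1.88 and TNNI2 from -0.22 to 0.88. Depth limits the genes with few reads, whose changes are bounds.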

Other observations

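DCSTAMP and TM4SF19 stood among the largest rises, so other genes of fused macrophages and osteoclasts were examined, a list chosen after values were seen. Of 12 others tested 10 were higher and 0 lower, with a median log2 fold change of 1.94. Of all genes tested 35.3% were higher and 35.7% lower, and in the general macrophage list 19 of 20 were higher. The calcitonin receptor CALCR had no read in the center and was not tested, and CTSK was not found among the named genes. OCSTAMP, the partner of DCSTAMP in cell fusion, was at 12.4, 22.2 and 44.6 CPM in the center and 0, 0.029 and 0.539 CPM in skin (7.38 ± 0.62), and the receptors OSCAR and SIGLEC15 rose by 5.22 ± 0.43 and 4.95 ± 0.79. The acid phosphatase ACP5 rose from 22.7, 24.4 and 43.2 CPM to 88.7, 120.0 and 157 CPM (2.08 ± 0.18), and the integrin chain ITGB3 and proton pump subunit TCIRG1 rose by 2.42 ± 0.17 and 2.40 ± 0.22. NFATC1, the transcription factor of osteoclasts, and TNFRSF11A, the receptor RANK, did not pass the threshold (adjusted p = 0.974 and 0.41).

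A few single genes, also chosen after their values were seen, stood out. HMOX1, the heme-degrading oxygenase, was at 445, 722 and 1160 CPM in the center and 8.42, 19.2 and 25 CPM in skin (5.33 ± 0.32, adjusted p = 7.41e-09). IDO1, which breaks down tryptophan, rose by 7.24 ± 0.64. SLPI, an epithelial inhibitor of neutrophil proteases, fell to 2.84, 7.12 and 13.6 CPM from 512, 1050 and 1870 CPM (-7.17 ± 0.49), and the epithelial defensin DEFB1 fell by 5.97 ± 0.59.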
